A study of Homo sapiens with 6 samples.

Results

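The genes described here are 54 interferon-stimulated genes and their regulators, taken by symbol from a list of well-known members of the type I interferon response, among 79172 gene names in the count table. These genes were chosen with earlier results of these data known. They were grouped by role into RNA and DNA sensors, 2′-5′-oligoadenylate synthetases, the ISG15 conjugation machinery, PARP proteins with DTX3L, STAT and IRF transcription factors, MX and IFIT effectors, membrane effectors, other effectors acting on nucleic acid or nucleotides, and a remaining group of IFI proteins, EPSTI1 and XAF1. All 54 symbols were found, and 41 of them were among the 16734 genes with enough reads to be tested. The study measured messenger RNA by paired-end RNA sequencing in Huh7 cells, a long-established line derived from a human liver carcinoma. It compared 3 Control libraries with 3 libraries of cells overexpressing HK1, the hexokinase that phosphorylates glucose at the first step of glycolysis. The means of HK1 overexpression and any vector or mock treatment of the Control cells are not given in the sources used here. No label says that the 3 libraries of a group came from separate cultures, so the p-values measure the spread between these libraries, which may be technical.

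Interferons are secreted when a cell senses foreign nucleic acid. Type I and type III interferons bind their receptors and activate the kinases JAK1 and TYK2, which phosphorylate STAT proteins, among them STAT2. The factor ISGF3, which contains STAT2 and IRF9, binds the interferon-stimulated response element (ISRE) in the promoters of target genes. A second element, the gamma-activated sequence (GAS), is typical of genes that respond to interferon gamma. The products of these genes recognise viral RNA, block translation or entry, modify proteins, and in some cases feed back on the pathway. Many are transcribed at a low basal level without added interferon, and Huh7 cells are widely used as hosts for hepatitis C virus replication.

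The promoters show what the members have in common and how they differ from one another. RefSeq gene starts on GRCh38.p14 were matched by symbol for 43 of the 54 members, and the 250 bases before each start were searched on both strands for the ISRE core, GAAA followed after any 2 bases by another GAAA (on the other strand TTTC, 2 bases, TTTC), and for the GAS core TTCNNNGAA, which is its own reverse complement. The stretches below lie outside the annotated exons of their own gene, and exons of other genes were not checked. They were chosen for this, because they carry ISRE cores and because they come from members with different outcomes. They are written 5′ to 3′ on the gene's strand, with ISRE cores in capitals.
ISG15, chr1:1013364-1013419, plus strand, higher in HK1-overexpressing cells: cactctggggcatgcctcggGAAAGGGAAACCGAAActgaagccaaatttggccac
PARP14, chr3:122680790-122680838, plus strand, higher: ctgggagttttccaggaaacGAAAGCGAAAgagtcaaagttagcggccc
IFIT3, chr10:89327821-89327904, plus strand, higher: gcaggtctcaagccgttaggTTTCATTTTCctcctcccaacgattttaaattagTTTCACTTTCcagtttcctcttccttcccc
IFIT5, chr10:89414503-89414567, plus strand, higher: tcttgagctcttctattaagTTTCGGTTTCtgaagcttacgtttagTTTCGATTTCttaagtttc
SAMD9, chr7:93118086-93118135, minus strand, higher: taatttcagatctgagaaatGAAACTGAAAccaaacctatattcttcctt
HERC5, chr4:88456974-88457074, plus strand, not called: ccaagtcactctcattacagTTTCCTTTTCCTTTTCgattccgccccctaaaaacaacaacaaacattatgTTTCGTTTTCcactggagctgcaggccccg
IFI6, chr1:27672256-27672368, minus strand, not called: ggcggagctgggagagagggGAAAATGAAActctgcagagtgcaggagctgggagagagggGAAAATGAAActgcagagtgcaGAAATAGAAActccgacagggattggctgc
IFI27, chr14:94110608-94110670, plus strand, no counted read in any library: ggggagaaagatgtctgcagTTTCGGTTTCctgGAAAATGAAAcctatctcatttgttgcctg
BST2, chr19:17405725-17405780, minus strand, near 0 reads: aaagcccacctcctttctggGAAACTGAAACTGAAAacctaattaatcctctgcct

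ISG15, HERC5 and BST2 carried cores that overlap one another, and IFI6 carried the same core, GAAAATGAAA, at 2 places in its stretch. An ISRE core stood before the start of 26 of the 43 matched members (60.5%), counting any entry of a member. By entry the core was found in 30 of 56 (53.6%), against 1061 of all 35116 promoter entries of the same length (3.02%). Since the members were chosen as known interferon targets, this excess describes the list. Within the list the core did not separate the outcomes. It stood before 10 of 16 matched members that were called higher, 9 of 18 that were tested and not called, and 7 of 9 with too few reads to test. DTX3L, HERC6, SAMD9L, UBE2L6, OAS1 and TRIM25 were called higher with no ISRE core in this window, which says only that these letters were not found there. For DTX3L the window edge cuts a core. The core found for PARP9, at chr3:122564332-122564341, runs across the start of DTX3L at 122564338. Among tested genes that are not members, the core stood before 17 of 480 called higher (3.54%), 322 of 10175 not called (3.16%) and 8 of 523 called lower (1.53%). The GAS core was found before 11 of the 43 members (25.6%). By entry it was found in 12 of 56 (21.4%), against 6.57% of all entries. It overlapped an ISRE core in BST2, EPSTI1, IFI27 and MX1.

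**Figure D1:**
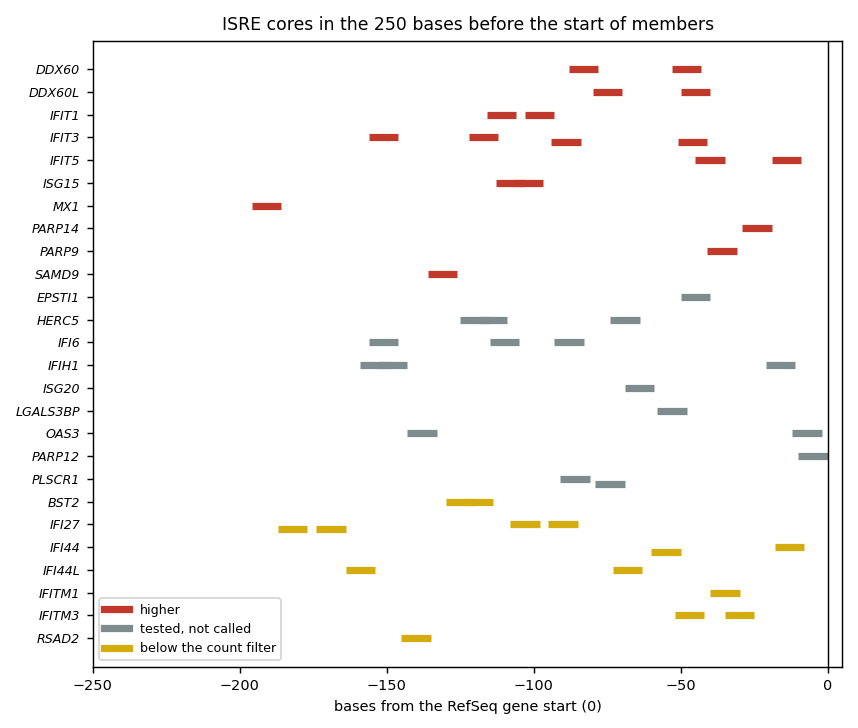
Position of each ISRE core, in bases before the RefSeq gene start, for the 26 members that have one in the window. Colours give the outcome in HK1-overexpressing against Control cells, and members with several cores occur among those called higher, those not called and those with too few reads.

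The libraries held 16771835 to 20823072 reads assigned to genes. Levels are given as counts per 1000000 assigned reads (CPM), scaled by edgeR's trimmed-mean factors, and a fold change is the log2 ratio of HK1-overexpressing over Control with its standard error (SE). A gene is called when the p of edgeR's quasi-likelihood test, adjusted over all tested genes by the Benjamini-Hochberg method, is below 0.05. HK1 itself stood at 0.776 ± 0.114 CPM in Control and 509.6 ± 18.1 CPM in HK1-overexpressing libraries (SD, n = 3 each), in the direction of the labels. Control libraries differed from one another more than HK1-overexpressing ones did, with a chi-square per degree of freedom over genes of 5.08 to 11.3 against 1.58 to 2.28. The summed level of 10 hepatocyte and hepatoma markers was 13495 to 14406 CPM in Control and 10454 to 10802 CPM in HK1-overexpressing libraries, with 7 of the 10 called lower. Of 10 leukocyte markers, 3 could be tested, and the summed level of 65.2 to 75.0 CPM in Control and 47.9 to 52.4 CPM in HK1-overexpressing libraries was nearly all LYZ. PTPRC, the general leukocyte antigen, was at most 0.151 CPM and the B-cell marker MS4A1 at 0 in all 6 libraries, and the endothelial markers CDH5, KDR and TEK were also at 0. The 6 fibroblast markers summed to 14.6 to 15.9 CPM in Control and 18.9 to 22.1 CPM in HK1-overexpressing libraries, and most of this was COL1A2. COL1A2 averaged 11.9 CPM in Control and 17.8 CPM in HK1-overexpressing libraries and was called higher. COL3A1, COL1A1 and PDGFRB had lower means in HK1-overexpressing libraries, and DCN and ACTA2 higher ones. Of these only COL3A1 had enough reads to be tested, and it was not called. Whether the shifts in hepatocyte markers and COL1A2 bear on the results below was not tested, and in bulk RNA a change in the share of cells cannot be told apart from a change in RNA per cell.

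Of the 54 members, 17 rose in HK1-overexpressing cells, none was called lower, 24 were tested and not called, and 13 had too few reads. Over all 16734 tested genes, 3.87% were called higher and 4.15% lower, 8.02% in all. The members were chosen with earlier results of these data known, so their share is no independent support. The genes that rose were MX1, IFIT1, IFIT2, IFIT3, IFIT5, ISG15, UBE2L6, HERC6, TRIM25, PARP9, DTX3L, PARP14, OAS1, DDX60, DDX60L, SAMD9 and SAMD9L. Apart from SAMD9L, their log2 changes lay between 0.20 and 0.79. In 28 of the 41 tested members each HK1-overexpressing library was above each Control library, and in 4 (CMPK2, USP18, MX2 and IFITM2) each was below, whereas 14.0% of all tested genes were separated upwards and 13.9% downwards. All 1342 genes called in this fit were separated, so the separation of a called member adds no support to its call. SAMD9L and OAS2 passed the read filter through the HK1-overexpressing libraries alone and so had to differ. Without them 16 of 39 tested members rose, and the median log2 change was 0.22, beside 0.0063 over all tested genes. The number of calls depended on which libraries were used, among members and among all genes. Leaving out 1 library at a time gave between 9 and 21 members called higher. There were 9 without HK1-overexpressing replicate 1, 10 without replicate 2, 11 without replicate 3 and 11 without Control replicate 3. In those fits 1.75%, 1.67%, 1.73% and 2.16% of all tested genes were called higher. The members' median log2 change, with SAMD9L and OAS2 included, was between 0.23 and 0.25 whichever library was left out.

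**Figure D2:**
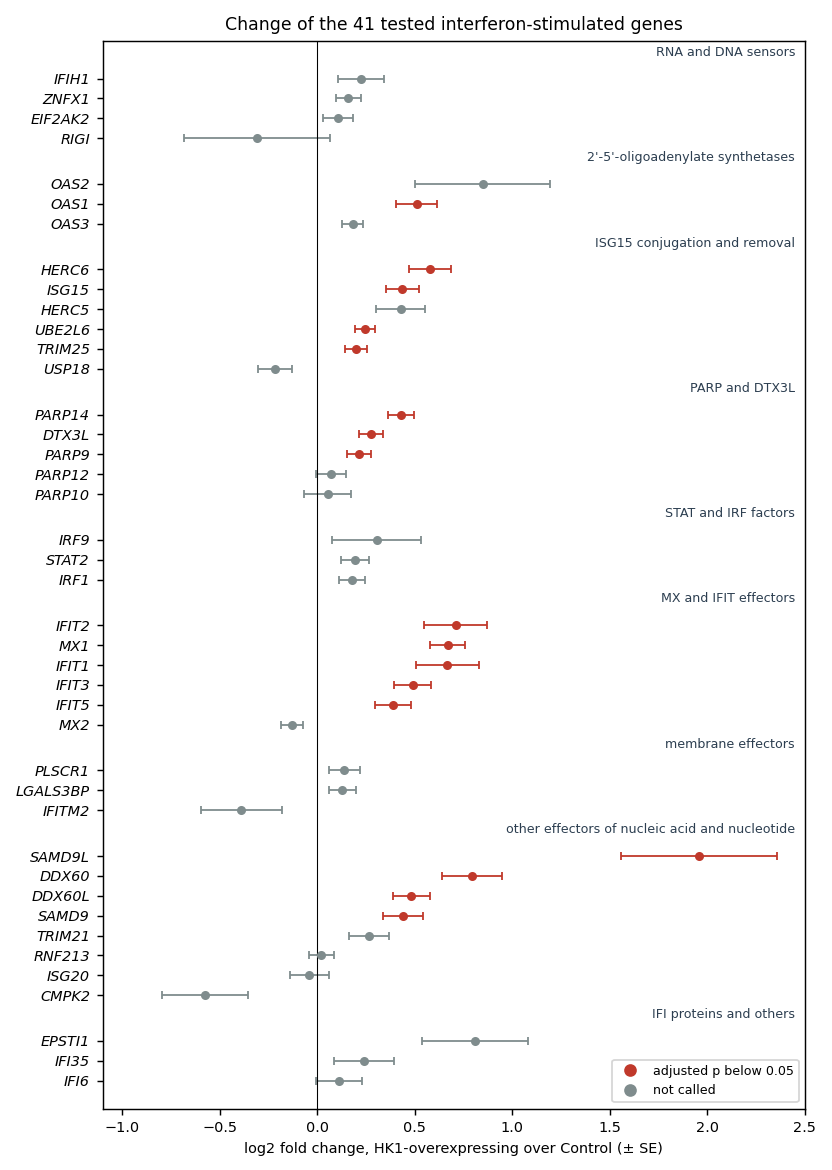
Log2 fold change of HK1-overexpressing over Control cells, with its SE, for the 41 tested members grouped by role. The 17 members called by edgeR are in red and all lie to the right of 0, and SAMD9L has the widest error among them.

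The MX and IFIT effectors held the most calls, with 5 of 6 members higher. MX1, a dynamin-like GTPase that traps incoming viral ribonucleoprotein, lies at chr21:41420020-41470071 (GENCODE release 47 exons on hg38, as deposited). It stood at 9.47, 9.70 and 9.18 CPM in Control replicates 1 to 3 and at 14.0, 14.7 and 16.3 CPM in HK1-overexpressing replicates 1 to 3. The groups did not overlap, the Control libraries lay close together, and the log2 change was 0.67 (SE 0.0906, edgeR adjusted p = 0.000363). MX2, the paralogue known for restricting HIV-1 in the nucleus, did not follow it. MX2 stood at 69.2, 75.0 and 72.8 CPM in Control and 64.0, 69.0 and 65.3 CPM in HK1-overexpressing libraries, with a log2 change of -0.13 (SE 0.0586, edgeR adjusted p = 0.211).

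The IFIT proteins bind viral RNA that lacks the methylations of the host cap and keep it from being translated. Their 4 genes lie side by side on chromosome 10 between 89283694 and 89421605, and all 4 rose. IFIT3, which stabilises IFIT1, was at 9.47, 9.93 and 10.9 CPM in Control and 15.5, 13.6 and 13.4 CPM in HK1-overexpressing libraries, a log2 change of 0.49 (SE 0.0955, edgeR adjusted p = 0.00561). IFIT5, which recognises RNA with a 5′ triphosphate, was at 14.7, 13.2 and 13.1 CPM against 19.8, 17.3 and 16.5 CPM, a log2 change of 0.39 (SE 0.0921, edgeR adjusted p = 0.0183). The other pair of the cluster rose as well. IFIT1 was at 2.77, 2.47 and 2.86 CPM in Control and 4.69, 4.58 and 3.61 CPM in HK1-overexpressing libraries, a log2 change of 0.67 (SE 0.162, edgeR adjusted p = 0.0202). IFIT2 was at 2.92, 4.05 and 2.55 CPM against 5.10, 5.25 and 5.22 CPM, a log2 change of 0.71 (SE 0.162, edgeR adjusted p = 0.0145). In each of the 4 the groups did not overlap. MX1 and IFIT3 kept their calls in all 16 alternative analyses. IFIT1, IFIT2 and IFIT5 each lost theirs without Control replicate 3 and without HK1-overexpressing replicate 1 or 2, IFIT2 also without HK1-overexpressing replicate 3, and IFIT1 also in DESeq2, with adjusted p up to 0.102, 0.0803 and 0.115.

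The ISG15 system attaches a small ubiquitin-like protein to other proteins, and 4 of its 6 members rose. ISG15, the modifier itself, at chr1:1001138-1014540, was at 22.2, 28.4 and 26.5 CPM in Control and 34.2, 34.7 and 35.1 CPM in HK1-overexpressing libraries. The 3 HK1-overexpressing libraries lay within 1 CPM of one another and above all Control libraries, and the log2 change was 0.44 (SE 0.0838, edgeR adjusted p = 0.00504). UBE2L6, the conjugating enzyme for ISG15, was at 101, 109 and 107 CPM against 127, 122 and 126 CPM, a log2 change of 0.24 (SE 0.0524, edgeR adjusted p = 0.00994). HERC6, a HECT-type ubiquitin ligase related to HERC5, was at 5.09, 5.41 and 5.17 CPM against 8.18, 7.23 and 7.97 CPM, with a log2 change of 0.58 (SE 0.110, edgeR adjusted p = 0.00471). TRIM25, a ubiquitin ligase that acts in RIG-I signalling, was at 102, 91.8 and 96.3 CPM against 111, 108 and 113 CPM, with a log2 change of 0.20 (SE 0.0549, edgeR adjusted p = 0.0381).

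HERC5, the main human ligase for ISG15, was separated between the groups and missed the threshold. Its levels were 4.99, 4.29 and 4.56 CPM in Control and 6.92, 6.02 and 5.74 CPM in HK1-overexpressing libraries, a log2 change of 0.43 (edgeR adjusted p = 0.0517). Leaving out 1 library moved that adjusted p from 0.028 (without Control replicate 1) to 0.216 (without HK1-overexpressing replicate 1). USP18 removes ISG15 from proteins and also dampens signalling at the interferon receptor. It was at 15.2, 14.6 and 15.1 CPM in Control and 13.3, 11.7 and 13.7 CPM in HK1-overexpressing libraries, lower in each of the latter but not called, with a log2 change of -0.22 (SE 0.0868, edgeR adjusted p = 0.152). Reads of USP18 are shared in part with its near copy USP41, since 15.4% of its 100-base windows also occur in another gene's transcripts. ISG15 and HERC6 kept their calls in all 16 alternatives. UBE2L6 lost its call without any one of the HK1-overexpressing libraries (adjusted p up to 0.0676), and TRIM25 without any one of them or Control replicate 3 (up to 0.179) and in the fit with a replicate block (0.0707).

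**Figure D3:**
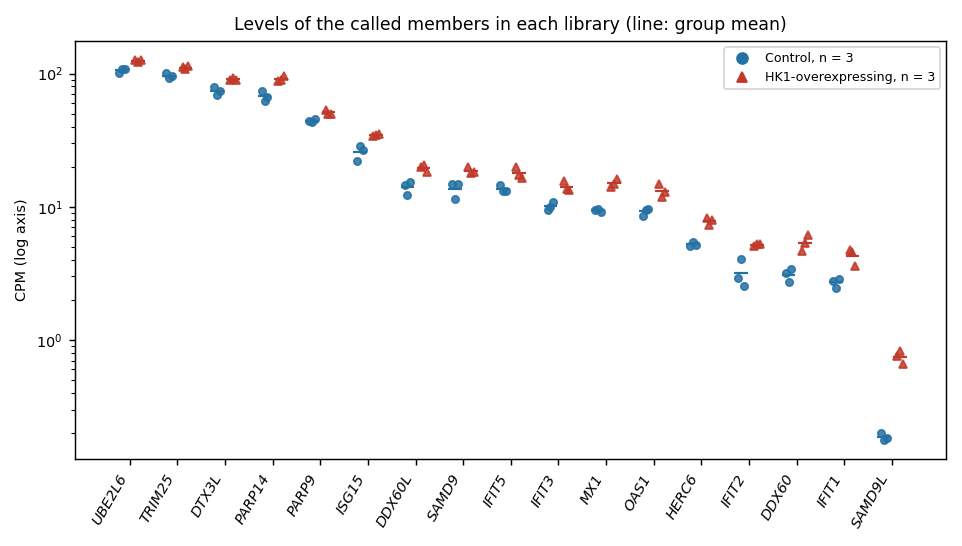
Level in CPM, on a log axis, of the 17 members called higher, with 1 point for each library and a line at the group mean (n = 3 each). The HK1-overexpressing libraries lie above the Control libraries for each gene, and the groups were likewise separated in all 1342 called genes. The genes span from under 1 CPM for SAMD9L to over 100 CPM for UBE2L6.

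PARP9 and DTX3L form a complex of an inactive-type ADP-ribosyltransferase and a ubiquitin ligase, and their genes lie head to head on chromosome 3 and share a small stretch of exon. PARP14, a mono-ADP-ribosyltransferase, lies on the same chromosome at 122680839-122730840. These 3 rose. PARP14 was at 73.8, 61.7 and 67.1 CPM in Control and 88.4, 89.0 and 95.9 CPM in HK1-overexpressing libraries, a log2 change of 0.43 (SE 0.0680, edgeR adjusted p = 0.00119). DTX3L was at 79.7, 69.6 and 74.4 CPM against 89.6, 91.9 and 89.5 CPM, a log2 change of 0.28 (SE 0.0596, edgeR adjusted p = 0.0105). PARP9 was at 43.7, 43.3 and 45.7 CPM against 53.6, 50.1 and 50.0 CPM, a log2 change of 0.21 (SE 0.0612, edgeR adjusted p = 0.0468). The groups did not overlap in any of the 3, and PARP14 kept its call in all 16 alternatives. DTX3L lost its call without Control replicate 3 or HK1-overexpressing replicate 2 or 3 (adjusted p up to 0.0807). PARP9 lost its call in 8 alternatives, among them those without Control replicate 3 or any one HK1-overexpressing library (up to 0.211). The other mono-ADP-ribosyltransferases overlapped between groups: PARP10 had a log2 change of 0.05 and PARP12 of 0.07, with edgeR adjusted p of 0.84 and 0.637.

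The oligoadenylate synthetases detect double-stranded RNA and make the second messenger that activates RNase L. OAS1, at chr12:112905856-112933219, was at 8.56, 9.46 and 9.67 CPM in Control and 14.7, 11.8 and 12.9 CPM in HK1-overexpressing libraries. The groups did not overlap and OAS1 rose, with a log2 change of 0.51 (SE 0.104, edgeR adjusted p = 0.00731). That call was lost without HK1-overexpressing replicate 1 (adjusted p = 0.0543). OAS3, the family member most closely tied to RNase L activation, was at 112, 111 and 106 CPM against 118, 131 and 125 CPM, separated but not called, with a log2 change of 0.18 (edgeR adjusted p = 0.0578, and 0.0207 and 0.0213 without Control replicate 1 or 2). The edgeR adjusted p of OAS3 was 0.312 without HK1-overexpressing replicate 2. OAS2 had 8, 7 and 6 reads in Control and 16, 16 and 12 in HK1-overexpressing libraries. The ratio of its pooled levels was 1.81 (95% exact interval 1.06 to 3.21, counting error only), and it was not called (edgeR adjusted p = 0.155). OAS2 passed the read filter through the HK1-overexpressing libraries alone. It could be tested only because it was higher there, so its ratio and interval are no support for a change. OASL, which lacks synthetase activity, had at most 7 reads in a library.

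None of the 4 tested sensors was called. IFIH1, which encodes the long double-stranded RNA sensor MDA5, was at 12.1, 9.70 and 8.33 CPM in Control and 11.5, 11.9 and 12.1 CPM in HK1-overexpressing libraries, overlapping between the groups, with a log2 change of 0.22 (edgeR adjusted p = 0.294). That value was 0.39 without Control replicate 1, where it passed the threshold (adjusted p = 0.0176), and 0.11 without Control replicate 3. ZNFX1, a helicase sensor at the mitochondrial surface, had a log2 change of 0.16 and EIF2AK2, the RNA-activated kinase PKR, of 0.10, with edgeR adjusted p of 0.153 and 0.477. RIGI, the sensor of RNA with a 5′ triphosphate, had 12, 9 and 8 reads in Control and 6, 12 and 9 reads in HK1-overexpressing libraries. That gives a ratio of 0.805 with a 95% exact interval of 0.459 to 1.41 for counting error, so a moderate change in either direction was not detectable at this depth. A further limit for RIGI is that 42.6% of its exon bases are shared with an overlapping gene, and the counting did not use strand. DHX58 had 1 to 5 reads per library and IFI16 at most 1.

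Among the other effectors of nucleic acid and nucleotides, the calls fell on 2 pairs of neighbouring paralogues. DDX60 and DDX60L are helicase-like proteins whose genes lie together on chromosome 4, between 168216291 and 168537786. DDX60 was at 3.17, 2.70 and 3.41 CPM in Control and 4.64, 5.30 and 6.12 CPM in HK1-overexpressing libraries, a log2 change of 0.79 (SE 0.153, edgeR adjusted p = 0.00517). DDX60L was at 14.5, 12.3 and 15.3 CPM against 19.9, 20.7 and 18.2 CPM, a log2 change of 0.48 (SE 0.0933, edgeR adjusted p = 0.00523). Both pairs of groups were separated, and both genes kept their call in each alternative that tested them.

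SAMD9 and SAMD9L are antiviral proteins that inhibit translation and restrict poxviruses, encoded next to each other on chromosome 7 between 93099513 and 93148385. SAMD9 was at 14.7, 11.5 and 14.9 CPM in Control and 19.9, 17.8 and 18.1 CPM in HK1-overexpressing libraries, a log2 change of 0.44 (SE 0.100, edgeR adjusted p = 0.0144), a call lost without HK1-overexpressing replicate 1 or 3 (up to 0.0847). SAMD9L had 4, 3 and 3 reads in Control and 15, 17 and 14 reads in HK1-overexpressing libraries. SAMD9L passed the read filter through the HK1-overexpressing libraries alone, so it could be tested only because it was higher there. Its fitted log2 change was 1.96 (SE 0.400, edgeR adjusted p = 0.00665), and the ratio of its pooled levels was 3.98 with a 95% exact interval of 1.98 to 8.84.

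CMPK2, a mitochondrial nucleotide kinase, lay in the other direction. It was at 3.02, 1.94 and 2.25 CPM in Control and 1.87, 1.30 and 1.71 CPM in HK1-overexpressing libraries, separated by a narrow gap and not called, with a log2 change of -0.58 (edgeR adjusted p = 0.133). Its neighbour RSAD2, the radical SAM enzyme viperin that uses the product of CMPK2, had at most 2 reads in a library. TRIM21, an antibody receptor and ubiquitin ligase, had a log2 change of 0.27 (edgeR adjusted p = 0.138). RNF213, a giant ubiquitin ligase, ranged from 141 to 167 CPM in Control and from 150 to 157 CPM in HK1-overexpressing libraries, and the exonuclease gene ISG20 had a log2 change of -0.04.

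The transcription factors of the pathway were not called. STAT2 was at 27.8, 25.1 and 24.8 CPM in Control and 28.9, 29.1 and 30.9 CPM in HK1-overexpressing libraries, with a log2 change of 0.19 (edgeR adjusted p = 0.126, and 0.0326 without Control replicate 1). IRF1, a factor induced strongly by interferon gamma, was at 30.9, 34.1 and 30.9 CPM against 36.3, 35.7 and 36.5 CPM, with a log2 change of 0.18 (edgeR adjusted p = 0.12, and 0.0205 without Control replicate 2). Without HK1-overexpressing replicate 3 the edgeR adjusted p was 0.383 for STAT2 and 0.318 for IRF1. In both genes the HK1-overexpressing libraries lay above all Control libraries. IRF1 shares 22.9% of its exon bases with other genes, which can lower its count. IRF9, the DNA-binding subunit of ISGF3, was near 1 CPM throughout, from 1.01 to 1.22 in Control and from 1.28 to 1.40 in HK1-overexpressing libraries (edgeR adjusted p = 0.491). The IRF9 value is uncertain, because all of its 100-base windows also occur in a read-through gene and reads assigned to both may have been lost. IRF7, the factor that amplifies interferon production, had no read in any library.

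Membrane effectors and the remaining IFI genes were not called either. IFITM2, which hinders fusion of viral and cellular membranes, was at 1.66, 1.65 and 2.01 CPM in Control and 1.36, 1.25 and 1.42 CPM in HK1-overexpressing libraries, with a log2 change of -0.39 (edgeR adjusted p = 0.301). PLSCR1 and the secreted glycoprotein gene LGALS3BP had log2 changes of 0.14 and 0.13. EPSTI1 had a log2 change of 0.81, from 0.806, 0.646 and 0.608 CPM in Control to 1.36, 1.30 and 0.997 CPM in HK1-overexpressing libraries, and missed the threshold (edgeR adjusted p = 0.0845). IFI35 was narrowly separated between the groups, with a log2 change of 0.24. IFI6, a small membrane protein, overlapped between them, with a log2 change of 0.11.

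Several genes often used to score an interferon response had few or no counted reads. IFI27, IFI44L and IRF7 had no read in any of the 6 libraries, and a count of 0 allows up to 0.144 to 0.179 CPM depending on the library. IFI44 had 2 reads, in 1 Control library, and IFI16 and XAF1 had 1 read each. IFITM1 had 2 reads, in 1 HK1-overexpressing library. BST2, the tetherin that holds budding virions, had 2, 3 and 2 reads in Control and 1, 1 and 0 in HK1-overexpressing libraries. IFITM3, TRIM22, RSAD2, OASL and DHX58 had between 0 and 7 reads per library. The IFITM genes and XAF1 share over 10% of their exon bases with other genes, XAF1 49.9% of them, which can lower their counts. IFI27 and IRF7 are each also annotated on 1 alternate sequence of the genome used for counting, and reads that fit both copies may not have been counted, so their values of 0 are uncertain.

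To compare levels between members, CPM was divided by exon length in kilobases, over the exons of all annotated isoforms together. In Control libraries UBE2L6 stood highest at 51.2 ± 2.09 CPM per kb, followed by ISG15 at 29.6 ± 3.67 and DTX3L at 12.9 ± 0.881 (SD, n = 3 each). Below them came LGALS3BP at 9.63 ± 0.451, IFI6 at 8.56 ± 1.22 and TRIM25 at 7.77 ± 0.391, whose neighbours in this order lay within their spread of one another. MX1 at 0.525 and OAS1 at 0.709 CPM per kb stood far below. IFI6 shares 26.6% of its exon bases with other genes, which can lower its count and its place in this order. SAMD9L and OAS2 left aside, 6 of the 15 tested members under 10 CPM in Control rose, with a median log2 change of 0.43, and of the 24 at or above 10 CPM, 10 rose, with a median of 0.19. Over all tested genes in the same ranges, 3.54% and 4.13% were called higher, with medians of 0.07 and -0.02.

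**Figure D4:**
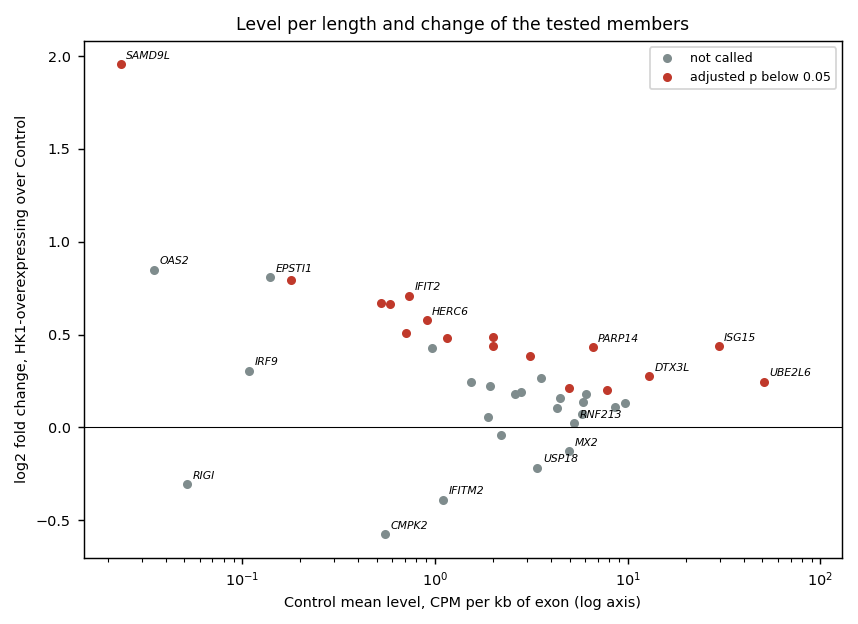
Control mean level in CPM per kb of exon, on a log axis, against the log2 fold change for the 41 tested members. SAMD9L, tested only through its HK1-overexpressing libraries, lies at the lower end of the levels with a log2 change of 1.96, and UBE2L6 and ISG15 at the upper end with log2 changes of 0.24 and 0.44.

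The members' mean shift was alike in the 3 HK1-overexpressing libraries. Averaged over the 41 tested members, log2 CPM relative to the Control mean was 0.0172, -0.0198 and 0.0026 in the Control libraries and 0.297, 0.278 and 0.281 in the HK1-overexpressing libraries. Without SAMD9L and OAS2, which entered through the HK1-overexpressing libraries alone, the last 3 values were 0.249, 0.228 and 0.248. The same mean over all tested genes was between -0.0115 and 0.0098 in Control and between 0.0281 and 0.0329 in HK1-overexpressing libraries. The MX and IFIT group was shifted by 0.502, 0.469 and 0.408 in the HK1-overexpressing libraries. Sensors and membrane effectors overlapped between the groups, and the other roles did not. The means of the synthetases and of the other effectors include OAS2 and SAMD9L, which had to differ. Those 2 role means were not taken without them. Summed over all 54 members, the level was 1178, 1130 and 1143 CPM in Control and 1312, 1305 and 1326 CPM in HK1-overexpressing libraries.

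**Figure D5:**
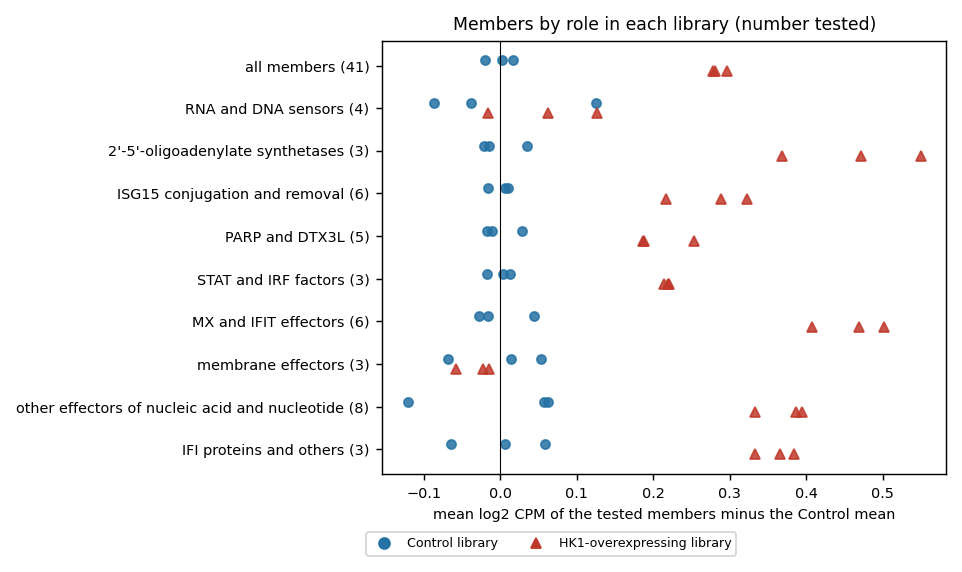
Mean log2 CPM of the tested members of each role, minus the mean of the Control libraries, with 1 point for each library. For all members the HK1-overexpressing libraries sit between 0.278 and 0.297, and sensors and membrane effectors are the roles whose groups overlap. OAS2 and SAMD9L, tested only through their HK1-overexpressing libraries, are included in the means of all members and of their roles.

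Other genes of the pathway were taken from 5 lists: interferon ligands, receptors with their kinases, negative regulators, sensing adapters, and other interferon-stimulated genes. Of these 113 genes, 69 were tested, 8 rose (11.6% of those tested) and none was called lower. Over all tested genes 3.87% were called higher and 4.15% lower. The lists were chosen with earlier results of these data known, so their share is no independent support. No interferon ligand gene could be tested: 21 of 22 had no read in any library, and IFNA5 had 1 read. Among receptors and kinases, 1 of 9 tested genes rose. JAK1, the kinase shared by type I, II and III receptors, was at 231, 192 and 200 CPM in Control and 255, 254 and 262 CPM in HK1-overexpressing libraries, a log2 change of 0.31 (SE 0.0631, edgeR adjusted p = 0.00828). That call was lost without Control replicate 3 or HK1-overexpressing replicate 3, with adjusted p up to 0.064. Negative regulators held no call among 10 tested, with SOCS3, an inhibitor of JAK kinases, at a log2 change of 0.50 (edgeR adjusted p = 0.0686).

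Of the sensing adapters 1 of 20 tested rose (5%), near the 3.87% of all tested genes, and of the other interferon-stimulated genes 6 of 30 (20%). APOL1, an apolipoprotein that lyses trypanosomes, was at 7.25, 7.40 and 7.78 CPM in Control and 13.6, 13.8 and 14.2 CPM in HK1-overexpressing libraries, a log2 change of 0.89 (SE 0.0888, edgeR adjusted p = 2.24e-05). GBP1, a guanylate-binding protein typical of the interferon gamma response, was at 29.0, 26.4 and 27.0 CPM against 42.6, 43.7 and 42.2 CPM, a log2 change of 0.64 (edgeR adjusted p = 2.93e-05). In both genes the libraries of a group lay close together and the groups were far apart. GBP3, APOL6 and APOL2 rose with log2 changes of 0.86, 0.75 and 0.41, and these 5 kept their call in all 16 alternatives. PHF11 and the regulator NLRC5 rose by 0.39 and 0.42 on the log2 scale, PHF11 losing its call in DESeq2 and without HK1-overexpressing replicate 2 or 3 (adjusted p up to 0.0855), and NLRC5 in DESeq2 and without any one library other than Control replicate 2 (up to 0.123).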

How the data were processed

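The authors deposited 1 table of raw read counts per gene for the 6 libraries, made with featureCounts 1.5.3 from read pairs over the exons of each named gene in GENCODE release 47, without a strand option, per the file headers. Reads were trimmed with Trim Galore and aligned to hg38 with Subread, per the submitters' processing notes. The table's exon length per gene was used for levels per kilobase. Genes were kept by filterByExpr with a minimum count of 10 and tested with edgeR 4.0.16 in R 4.3.3 (TMM factors, robust quasi-likelihood fit, group as the only term, 3 against 3, Benjamini-Hochberg adjustment over all tested genes, threshold 0.05), with the steps tested on simulated data. The SE of a log2 change is its size divided by the square root of F. Intervals on pooled counts are exact at 95% and cover counting error only. The alternatives were other scaling, filters and tools (DESeq2 1.42.0, limma 3.58.1), a stricter threshold, a replicate block and each library left out in turn. Every member could be named, and in the other pathway lists the called genes and up to 3 uncalled genes of smallest p. One gene of these lists is not reported here. The members and lists were chosen with earlier results of these data known. Promoter sequences are RefSeq's (GRCh38.p14), and overlap of exons was read from the deposited coordinates.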

Additional observations from a re-analysis of the deposited data

How the results depend on the processing

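No member was called lower under any of the 17 alternatives. Members called higher, 17 in the analysis reported, numbered 14 to 19 under other scaling, filters, tools and the replicate block, 10 at an adjusted p of 0.01, and 9 to 21 when 1 library was left out (9, 10 and 11 when HK1-overexpressing replicate 1, 2 or 3 was dropped, and 11 when Control replicate 3 was). Of the 17, 8 kept their call wherever they were tested (ISG15, HERC6, PARP14, MX1, IFIT3, DDX60, DDX60L and SAMD9L), and 5 of the 24 uncalled members passed the threshold somewhere (OAS3, HERC5, IRF1, STAT2 and IFIH1). SAMD9L entered through the HK1-overexpressing libraries alone, so its kept call adds no support. DESeq2 and the filter at a mean of 5 CPM gave SAMD9L no call. Pathway genes called higher, 8 in the analysis reported, numbered 5 to 10 when 1 library was left out, the lowest of these lacking HK1-overexpressing replicate 3. Over all genes, 648 were higher and 694 lower. At an adjusted p of 0.01 these were 290 and 286. With libraries scaled by total alone, 907 were higher and 462 lower, a different split that moved the median of all genes to 0.0451 (log2). With voom sample weights 1048 were lower. Leaving out 1 library gave 286 to 1172 higher and 250 to 1085 lower.

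Same-numbered libraries hardly deviated together (correlations of 0.00707, 0.0579 and -0.0304), and pairs with different numbers gave -0.0515 to 0.0496. Whether same-numbered libraries shared a culture or a batch cannot be told from these values. The fit with a replicate block called 563 genes higher and 511 lower, 15 members and 8 pathway genes, with TRIM25 (adjusted p = 0.0707) and PARP9 (adjusted p = 0.0919) no longer called.

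The sign turned for 4 uncalled members when a library was left out. PARP10 ranged from -0.0441 to 0.1663, below 0 when Control replicate 3 (-0.0286) or HK1-overexpressing replicate 3 was dropped. ISG20 ranged from -0.1509 to 0.0238, above 0 when Control replicate 2 or 3 (0.0203) or HK1-overexpressing replicate 2 (0.0071) was dropped. RNF213 ranged from -0.023 to 0.1093, below 0 when Control replicate 2 (-0.0125) or 3 or HK1-overexpressing replicate 3 (-0.0017) was dropped. IFI6 ranged from -0.0049, when Control replicate 1 was dropped, to 0.1792. The cause of these shifts was not tested. Genes with under about 10 reads per library were limited by depth: changes in RIGI and OAS2 have wide counting intervals, and 13 members were not tested.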
